A study of Mus musculus with 7 samples.

Results

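Antigen presentation genes were measured in pancreatic islets of pregnant mice, as the 44 genes of the mouse major histocompatibility complex (MHC) and its peptide-loading pathway among 19938 genes on the array. The members were the 29 genes whose symbol starts with H2- and that had a probe set naming 1 gene, together with 15 genes named singly: B2m, Tap1, Tap2, Tapbp, Tapbpl, Psmb8, Psmb9, Psmb10, Psme1, Psme2, Erap1, Nlrc5, Ciita, Cd74 and Cd1d1. They fell into 20 class I chain genes, 12 class I pathway genes, 8 class II chain genes, 2 class II pathway genes (Cd74 and Ciita), the lipid presenter Cd1d1 and H2-Ke6, a hydroxysteroid dehydrogenase gene that lies in the region and encodes no MHC chain. A further 8 probe sets listed an H2- gene together with other genes and were left out. Among these were both that list the classical chains H2-K1 and H2-D1, so the class I chain genes described here are nonclassical ones and pseudogenes.

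The islets came from 3 mice labelled PrlR+/+ wild type and 4 mice labelled PrlR+/-, heterozygous for a null allele of the prolactin receptor, all female, pregnant and on the C57BL/6 strain background. Islets were taken on day 15 of pregnancy from females mated at 12 to 16 weeks of age, and the islets of each mouse were kept apart and gave 1 Affymetrix array, labelled from 250 ng of RNA (integrity number above 8.5). The labels restrict the null allele to no cell type and do not say whether the mice were littermates. Values are log2 expression values as the authors deposited them, and a difference is the PrlR+/- mean minus the PrlR+/+ mean on that scale. Genotypes are those of the labels, and the level of the receptor gene was not used as a check of them. Beta cell markers were bright on every array, with Ins2 between 13.23 and 13.36, and so were acinar markers, with Cpa1, a pancreatic carboxypeptidase gene, between 13.62 and 13.77. The median gene lay between 7.34 and 7.37 on each array. PrlR+/- 4 stood apart, with the narrowest spread over genes, a lower quartile of 5.82 against 5.62 to 5.73 on the other arrays. The number of arrays limits the precision.

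Class I molecules consist of a heavy chain and beta-2-microglobulin and show peptides from the cytosol to CD8 T cells on nearly every nucleated cell. These peptides are cut by the proteasome, whose catalytic subunits are replaced by Psmb8, Psmb9 and Psmb10 under interferon, carried into the endoplasmic reticulum by Tap1 and Tap2, and loaded with the help of tapasin. Class II molecules show peptides from endosomes to CD4 T cells, are made mainly by macrophages, dendritic cells and B cells, and are guided by the invariant chain Cd74. Nlrc5 and Ciita are the master coactivators of class I and class II promoters, which share X and Y box elements bound by RFX, CREB and NF-Y factors.

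The promoters of the class II chains H2-Aa and H2-Eb1, which varied together between mice, are printed beside those of the class I pathway genes B2m, Psmb9 and Psmb10 to show the elements they do and do not share. The sequences are RefSeq windows of the build GRCm38.p6, from 250 bases before to 50 bases after the gene start, and read 5′ to 3′ on the strand of the gene. Capitals mark matches on either strand to CCAAT (the core of the Y box, seen as ATTGG when it lies on the other strand), TGACG (a part of the X2 box) and GAANNGAAA (a core of interferon response elements).
H2-Aa (chr17:34287774-34288073, minus strand): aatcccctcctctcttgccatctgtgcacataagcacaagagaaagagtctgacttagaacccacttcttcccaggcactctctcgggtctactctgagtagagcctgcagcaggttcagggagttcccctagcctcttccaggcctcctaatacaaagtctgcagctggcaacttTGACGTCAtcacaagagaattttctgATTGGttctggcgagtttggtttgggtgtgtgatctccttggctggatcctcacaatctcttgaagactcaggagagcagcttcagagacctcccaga
H2-Eb1 (chr17:34305617-34305916, plus strand): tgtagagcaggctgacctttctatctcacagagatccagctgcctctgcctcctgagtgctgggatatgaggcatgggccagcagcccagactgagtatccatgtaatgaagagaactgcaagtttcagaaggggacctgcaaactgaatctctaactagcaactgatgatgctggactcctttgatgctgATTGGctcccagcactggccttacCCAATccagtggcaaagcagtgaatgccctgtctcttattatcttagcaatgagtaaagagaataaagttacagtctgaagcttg
B2m (chr2:122147437-122147736, plus strand): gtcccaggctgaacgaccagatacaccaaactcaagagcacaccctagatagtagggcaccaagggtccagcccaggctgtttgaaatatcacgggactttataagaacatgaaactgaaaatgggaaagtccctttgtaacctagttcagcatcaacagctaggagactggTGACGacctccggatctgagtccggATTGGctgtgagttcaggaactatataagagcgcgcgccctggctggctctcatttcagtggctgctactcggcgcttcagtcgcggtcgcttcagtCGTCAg
Psmb9 (chr17:34187281-34187580, minus strand): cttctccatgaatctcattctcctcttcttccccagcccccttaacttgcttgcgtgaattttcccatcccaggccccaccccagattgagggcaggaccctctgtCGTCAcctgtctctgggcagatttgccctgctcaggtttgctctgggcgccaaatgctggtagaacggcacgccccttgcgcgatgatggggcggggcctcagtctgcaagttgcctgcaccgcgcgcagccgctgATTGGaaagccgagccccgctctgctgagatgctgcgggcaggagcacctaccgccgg
Psmb10 (chr8:105938343-105938642, minus strand): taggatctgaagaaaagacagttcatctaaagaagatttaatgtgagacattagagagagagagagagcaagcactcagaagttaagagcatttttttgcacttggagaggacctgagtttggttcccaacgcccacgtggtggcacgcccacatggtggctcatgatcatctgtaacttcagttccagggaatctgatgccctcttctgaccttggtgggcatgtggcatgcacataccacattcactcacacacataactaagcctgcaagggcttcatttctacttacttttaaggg

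RefSeq windows were found for 31 of the 44 members. CCAAT was present in a window of each of the 6 class II chain genes with a window. It was present for 13 of 15 class I chain genes and 4 of 9 class I pathway genes, while 37.4% of all 32851 windows held it. A gene counted if any of its windows matched, whereas the shares of all windows count single windows. The first base of CCAAT lay 48 bases before the start of H2-Aa, 43 before that of H2-Oa and 57 before that of H2-Ob. It lay 53 before that of B2m, and H2-Eb1 held CCAAT at 59 and 35 bases. H2-DMa held CCAAT at 198 bases in a window and not in its other window. TGACG was found in windows of 12 of the 31 members, against 20.8% of all windows. In H2-Aa it was matched on both strands by overlapping matches, whose first bases lay 74 and 71 bases before the start. GAANNGAAA was found in windows of 5 members, against 7.52% of all windows. Other spacings of this repeat were not counted, so members without a match may still hold an interferon response element. The chain genes descend from common ancestors, so their windows are not independent of each other. Psmb9 and Tap1 are transcribed away from each other from starts 226 bases apart. Their windows overlap by 275 bases and hold the same CCAAT and TGACG matches. In the Psmb10 window printed above, none of the 3 motifs was matched. A match is a description of the letters and was not tested as a binding site.

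No member was called between the genotypes. By limma with Benjamini-Hochberg adjustment over all 19938 genes, 0 of the 44 members had an adjusted p under 0.05, as did 0% of all genes, and the smallest adjusted p among the members was 0.99. An unadjusted p under 0.05 was reached by 1 member, Psmb10, which was higher in PrlR+/- islets. Of all genes 2.2% (438) reached it, 1.07% higher and 1.13% lower. The groups did not overlap for 0 of 44 members, against 2.24% of all genes, 1.03% higher and 1.21% lower. Members with a higher mean in PrlR+/- islets numbered 34 of 44, against 55.7% of all genes, and those with a lower mean 10 of 44, against 43.7%. The number with a higher mean was 27 of 44 without PrlR+/+ 2 and 28 of 44 without PrlR+/- 4, and with array weights it was 25 of 44. The median difference was 0.0879 over the members and 0.0142 over all genes. The members' mean of 0.0773 was 0.0456 without PrlR+/+ 2. The 95% interval of the difference lay within 1.5-fold in both directions for 34 of 44 members and for 89.9% of all genes. For the other 10 members the interval reached beyond 1.5-fold in at least 1 direction. Among those with wide intervals were the bright class II genes, as the plot of genotype differences shows.

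**Figure D1:**
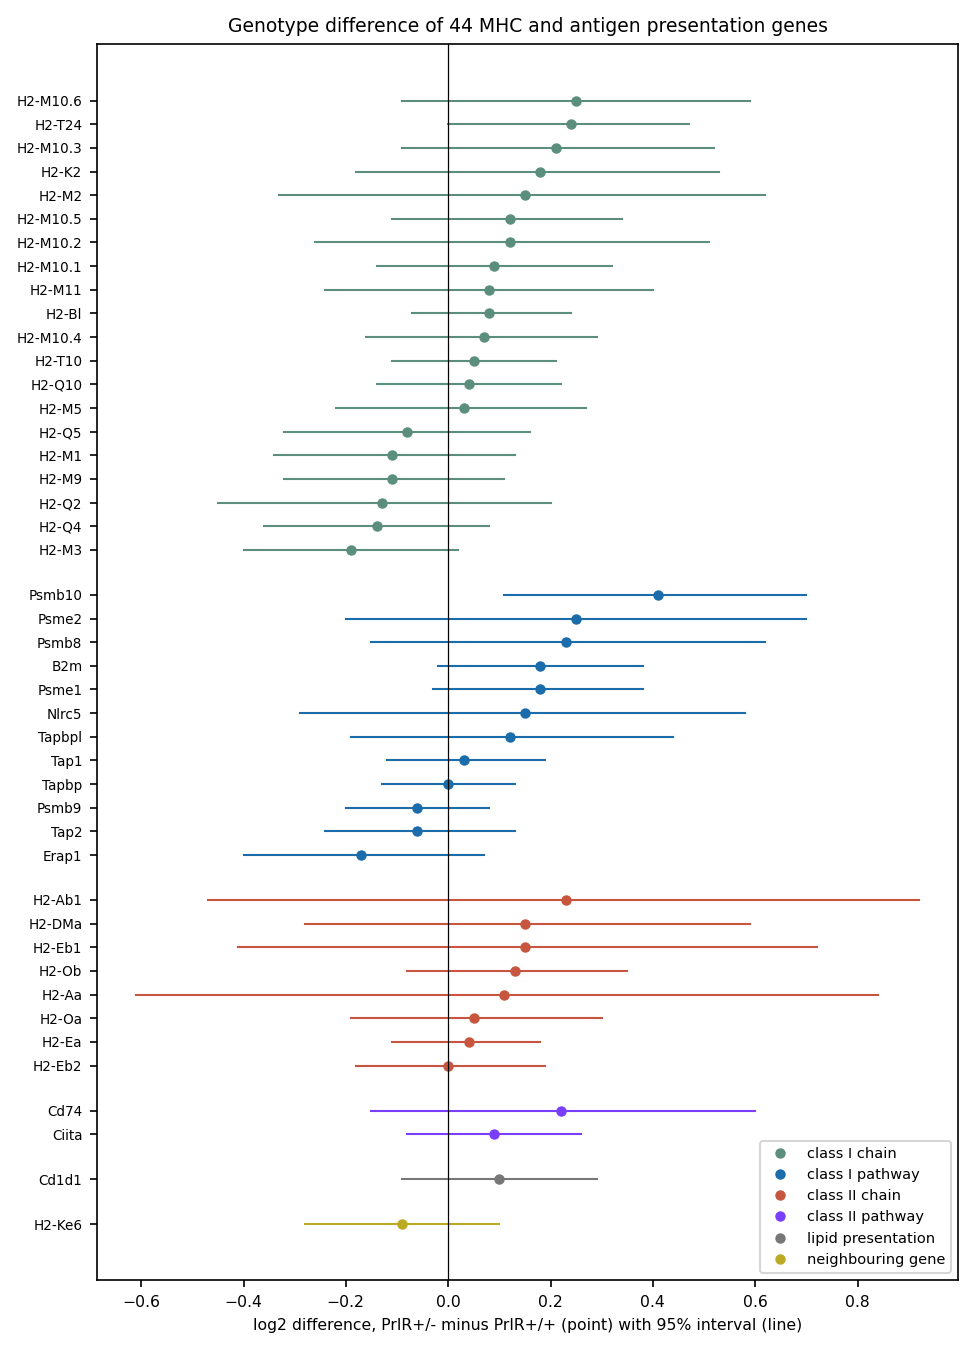
Log2 difference between PrlR+/- and PrlR+/+ islets for each of the 44 members (point) with its 95% interval by limma (line), grouped by role. The line of Psmb10 (0.11 to 0.70) lies above 0, the lines of H2-Aa (-0.61 to 0.84) and H2-Ab1 (-0.47 to 0.92) are among the widest, and no member passed adjustment over all genes.

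Bright class II genes shared 1 low mouse, PrlR+/+ 2, and overlapped between the genotypes. H2-Ab1, the beta chain of the I-A molecule, measured 10.55, 9.27 and 10.18 in PrlR+/+ mice 1 to 3 and 10.20, 10.61, 10.12 and 9.97 in PrlR+/- mice 1 to 4. Its partner H2-Aa, the alpha chain, measured 10.70, 9.54 and 10.47 in PrlR+/+ and 10.53, 10.79, 9.99 and 10.09 in PrlR+/- islets. H2-Eb1, the beta chain of the I-E molecule, was at 10.44, 9.47 and 10.18 in PrlR+/+ and 10.13, 10.56, 9.98 and 10.06 in PrlR+/- islets. In these 3 genes PrlR+/+ 2 was the lowest mouse and PrlR+/- 2 the highest, and the genotypes overlapped.

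Cd74, which holds the class II groove and directs it to endosomes, was at 11.22, 10.55 and 11.12 in PrlR+/+ and 11.09, 11.33, 11.18 and 11.14 in PrlR+/- islets. H2-DMa, the alpha chain of the editor that exchanges the invariant chain fragment for peptide, was at 8.47, 7.67 and 8.43 in PrlR+/+ and 8.31, 8.39, 8.36 and 8.32 in PrlR+/- islets. These are the 5 class II genes that lay above the median of all genes, and in all 5 PrlR+/+ 2 was the lowest mouse, as it was for 13.4% of all genes. Their mean in that mouse was 9.300, against 9.916 to 10.336 in the 6 other mice.

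The genotype differences of these genes were 0.23 ± 0.30 for H2-Ab1, 0.11 ± 0.31 for H2-Aa, 0.15 ± 0.24 for H2-Eb1, 0.22 ± 0.16 for Cd74 and 0.15 ± 0.19 for H2-DMa (moderated SE, n = 3 and 4). The unadjusted p lay between 0.207 (Cd74) and 0.725 (H2-Aa) by limma, with adjusted p = 0.99 for each. All 10 class II members had higher means in PrlR+/- islets (9 of 10 after quantile normalization or median centring, where H2-Eb2 was below 0), with a mean difference of 0.118 and a median of 0.124. Without PrlR+/+ 2 this direction turned, with a mean difference of -0.0355 and 5 of 10 members higher, and the 5 bright genes were at -0.119 with 1 of 5 higher (Cd74, at 0.01).

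Macrophage and dendritic cell markers had their lowest mean in the same mouse. Of the 18 listed markers, PrlR+/+ 2 was the lowest mouse for 8, as it was for 13.4% of all genes. The list mean was 6.588 there against 6.782 to 6.878 in the 6 others. Fcer1g, the signalling chain of Fc receptors, was at 7.57 in that mouse against 8.29 to 8.94 elsewhere, and the fractalkine receptor gene Cx3cr1 was at 6.82 against 7.53 to 7.75. For 1 of the 18 markers, Flt3, PrlR+/+ 2 was the highest mouse, at 6.01 against 5.56 to 5.95. Over the genotypes 13 of 18 markers had higher means, with a median difference of 0.0296. Without PrlR+/+ 2 the mean difference of the marker list was -0.00111 in place of 0.0765. Lyz2, a lysozyme of macrophages, is on this list and was higher in PrlR+/- islets by 0.64 ± 0.10 (limma, unadjusted p = 0.000291, adjusted p = 0.99). Its groups did not overlap, which held for 2.24% of all genes, and its difference was 0.64 without PrlR+/+ 2. Aif1, a calcium-binding protein of macrophages, differed by 0.15 ± 0.11, and Laptm5, the brightest of the list, by 0.14 ± 0.15. The mean of 6 B cell markers ran from 5.578 to 6.018 over the mice and was not lowest in PrlR+/+ 2, where it was 5.805. The mean of T and NK cell markers was also lowest in PrlR+/+ 2, at 5.247 against 5.271 to 5.507. Beta cell markers had their next to lowest mean there, at 12.052, with the lowest in PrlR+/- 4, at 11.923. In these bulk islets fewer cells of a type and less RNA per cell cannot be told apart, and the part of these markers in the class II values was not tested.

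PrlR+/- 2, the highest mouse for 4 of the 5 bright class II genes, was also highest for markers of several other cell types. It was the highest mouse for 6 of 8 endothelial markers, with a list mean of 9.736, and for 5 of 7 acinar markers, with 12.570. Of all genes, 11.8% were highest in this mouse. The list means of stellate cell and fibroblast markers (7.658), duct markers (7.726) and macrophage and dendritic cell markers (6.878) were highest there too. In PrlR+/+ 2, where the bright class II genes were lowest, acinar (12.440) and duct markers (7.516) had their next highest means. Endothelial (9.526) and stellate cell and fibroblast markers (7.404) were not lowest in PrlR+/+ 2. The part of these markers in the class II values of either mouse was not tested.

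**Figure D2:**
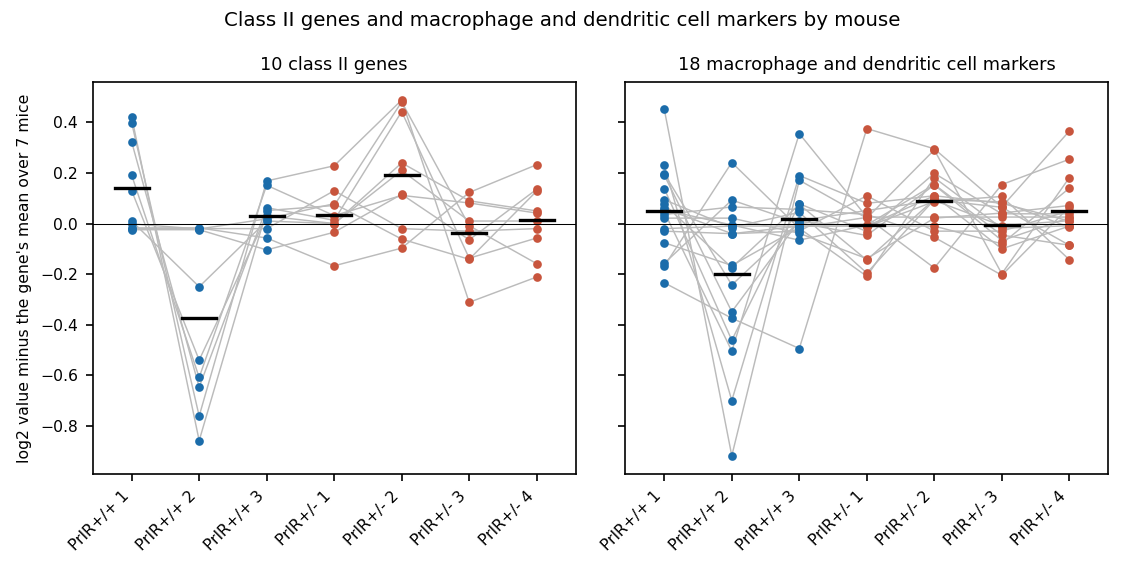
Log2 value minus the gene's mean over the 7 mice, for the 10 class II genes (left) and 18 macrophage and dendritic cell markers (right). Each point is a gene, grey lines join a gene's values, black bars are means over genes, and blue marks PrlR+/+ and red PrlR+/- mice. PrlR+/+ 2 has the lowest mean deviation in both panels (-0.37 for class II and -0.20 for the markers).

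The other class II genes were dim, all 5 below the median gene. The coactivator gene Ciita measured 6.18, 6.18 and 6.10 in PrlR+/+ and 6.17, 6.32, 6.14 and 6.34 in PrlR+/- islets, a difference of 0.09 ± 0.07 (SE). PrlR+/+ 2 was not low for this gene. H2-Oa and H2-Ob, chains of the DO molecule that restrains peptide editing, differed by 0.05 ± 0.10 and 0.13 ± 0.09, and H2-Eb2 by 0.00 ± 0.08. H2-Ob was lowest in PrlR+/+ 2, at 5.70 against 5.95 to 6.16, and without that mouse its difference was 0.0475. H2-Ea, the alpha chain of I-E, is annotated by RefSeq as a transcribed pseudogene and is known not to be made in the H2-b haplotype of C57BL/6. It read 4.65 in each PrlR+/+ mouse and between 4.64 and 4.80 in PrlR+/- mice. That level is below 5.71, the lower quartile of gene means, where array values may not reflect transcripts.

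Enzymes that prepare peptides and free the class II groove gave both directions. Of 8 lysosomal enzyme genes 4 had higher and 4 lower means, with a median difference of -0.00167 and 0 with an unadjusted p under 0.05. Ctss, the protease that trims the invariant chain, lay between 8.15 and 8.28 in all 7 mice and was at 8.21 in PrlR+/+ 2. Their list mean was highest in PrlR+/+ 2, at 9.881, the mouse in which the bright class II genes were lowest, and lay between 9.700 and 9.875 in the others. Ctsh and Ctsd, cathepsins of the same compartment, differed by -0.27 ± 0.17 and -0.14 ± 0.08, with the lowest value of each in PrlR+/- 4.

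Class I pathway genes had the largest member difference, that of Psmb10. This gene encodes an inducible catalytic subunit of the immunoproteasome (probe set 10581378). Its values were 8.27, 8.63 and 8.14 in PrlR+/+ mice 1 to 3 and 8.63, 8.78, 8.70 and 8.91 in PrlR+/- mice 1 to 4. The groups met at 1 value, since PrlR+/+ 2 equalled PrlR+/- 1, and no PrlR+/- mouse lay below any PrlR+/+ mouse. The difference was 0.41 ± 0.13 (SE), a ratio of 1.33, with an unadjusted p = 0.0136 by limma and adjusted p = 0.99. The 2-sided exact permutation test over the 35 splits of the mice gave p = 0.0571, where the smallest possible p is 0.0286. Leaving out 1 mouse at a time moved the difference between 0.30 and 0.55.

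The other immunoproteasome subunits overlapped between the genotypes. Psmb8 measured 6.88, 7.07 and 6.84 in PrlR+/+ and 7.02, 6.81, 7.34 and 7.48 in PrlR+/- islets, so PrlR+/- 2 was the lowest of all mice and PrlR+/- 3 and 4 the highest. Psmb9 was nearly level, at 8.13 to 8.20 in PrlR+/+ islets and 8.03 to 8.18 in PrlR+/- islets. Their differences were 0.23 ± 0.16 and -0.06 ± 0.06 (SE). Without PrlR+/- 4 the difference of Psmb8 was 0.13.

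The activator that opens the proteasome core is built from Psme1 and Psme2. Psme2 measured 9.57, 9.86 and 9.49 in PrlR+/+ and 9.81, 9.44, 10.15 and 10.16 in PrlR+/- islets. Psme1 measured 9.86, 9.68 and 9.76 in PrlR+/+ and 9.93, 9.86, 9.85 and 10.13 in PrlR+/- islets. The genotypes overlapped for both, and the differences were 0.25 ± 0.19 and 0.18 ± 0.09 (SE). Leaving out 1 mouse moved Psme2 between 0.16 (without PrlR+/- 4) and 0.40 (without PrlR+/- 2), and Psme1 was at 0.11 without PrlR+/- 4. Psme2 had the same 2 mice at the top as Psmb8, PrlR+/- 3 and 4, and the same mouse at the bottom, PrlR+/- 2.

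The standard proteasome gave a comparison outside the members. Of 17 genes of its core, its other activators and its assembly, 10 had higher and 7 lower means, with a median difference of 0.0292 and 0 with an unadjusted p under 0.05. The constitutive counterparts Psmb5, Psmb6 and Psmb7 differed by 0.03 ± 0.07, 0.10 ± 0.12 and 0.07 ± 0.14 (SE), and the 2 genes of smallest unadjusted p were Psme4 (-0.16 ± 0.09) and Psmb3 (0.19 ± 0.10). Psma1, a core subunit, was at 10.54 and 10.60 in PrlR+/- 3 and 4 and at 9.97 in PrlR+/- 2, so its highest and lowest mice were those of Psme2. PrlR+/- 4 was the highest mouse for 6 of these 17 genes, for 8 of 12 class I pathway genes and for 29.3% of all genes.

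Peptide transport, loading and trimming genes gave small differences of both signs. Tap1 lay between 7.84 and 7.86 in PrlR+/+ mice and at 7.81, 7.86, 7.86 and 8.02 in PrlR+/- mice 1 to 4, a difference of 0.03 ± 0.07 (SE). Tap2, its partner in the transporter, differed by -0.06 ± 0.08, and Tapbp, which encodes tapasin, by 0.00 ± 0.06, with a 95% interval of -0.13 to 0.13. Tapbpl, a tapasin relative that edits peptides, differed by 0.12 ± 0.13, and by 0.02 without PrlR+/- 4, where it read 9.79. Erap1, the aminopeptidase that trims peptides to length, was at 8.61, 8.86 and 8.62 in PrlR+/+ and 8.66, 8.39, 8.63 and 8.44 in PrlR+/- islets, a difference of -0.17 ± 0.10. Of these 5 genes, 0 had an unadjusted p under 0.05.

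B2m, the light chain shared by class I molecules and Cd1d1, was bright on each array. It measured 12.06, 11.86 and 12.08 in PrlR+/+ and 12.08, 12.11, 12.24 and 12.29 in PrlR+/- islets, so that PrlR+/- 1 equalled PrlR+/+ 3 and no PrlR+/- mouse lay below a PrlR+/+ mouse. The difference was 0.18 ± 0.08 (SE; limma, unadjusted p = 0.0682, adjusted p = 0.99), and 0.11 without PrlR+/+ 2. Chaperones of class I assembly in the endoplasmic reticulum had a median difference of -0.0208 over 7 measured genes of 8 listed, 2 higher and 5 lower. Canx, which holds new heavy chains, differed by -0.03 ± 0.05 and Sec61b, a part of the membrane channel, by 0.13 ± 0.18. Cd1d1, which presents lipids to NKT cells, was dim, between 5.41 and 5.72 over all mice.

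**Figure D3:**
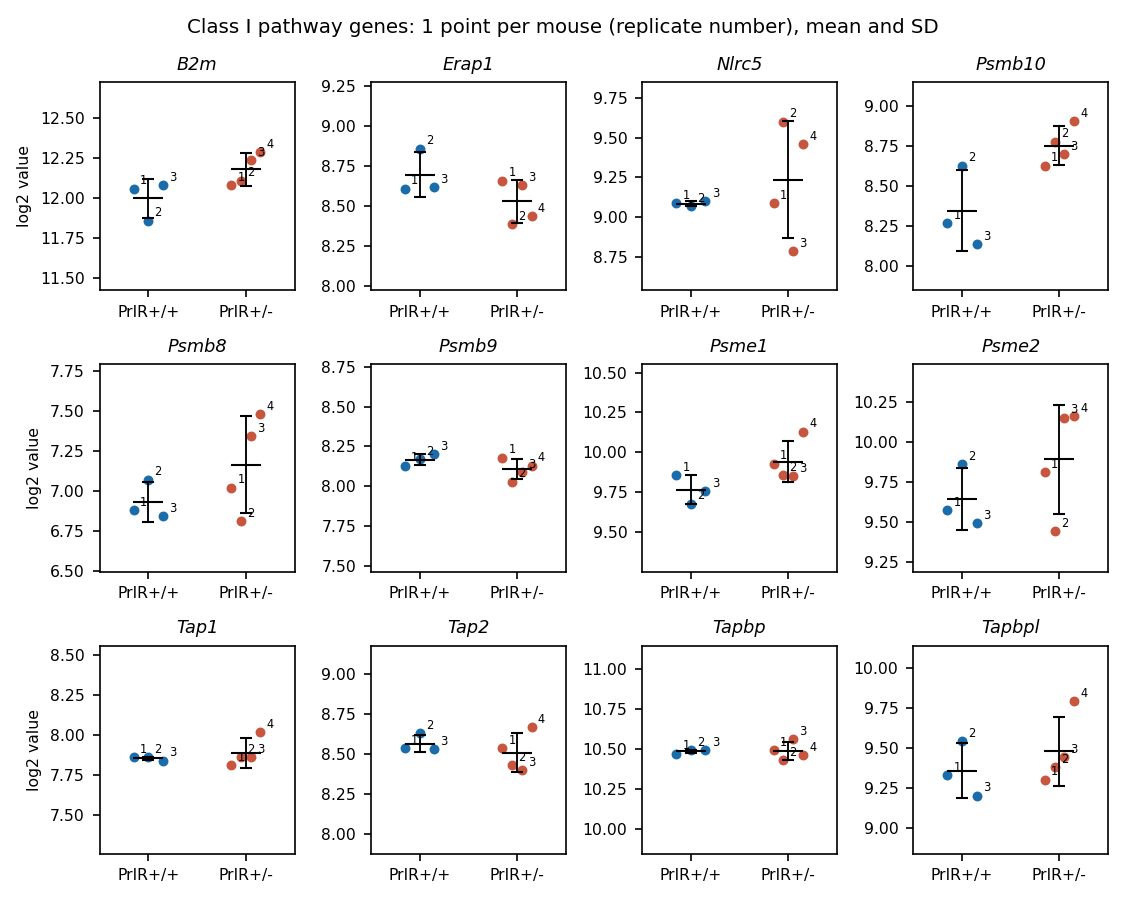
Log2 values of the 12 class I pathway genes, 1 point per mouse labelled with its replicate number, with the mean and SD of each genotype. All panels span the same range on the log2 axis. For Psmb10 and B2m no PrlR+/- mouse lies below a PrlR+/+ mouse, while Tapbp and Psmb9 are nearly level.

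Nlrc5, the class I coactivator, was the 1 member with several probe sets, 19 in all. The brightest, which stood for the gene, read 9.09, 9.07 and 9.10 in PrlR+/+ and 9.09, 9.60, 8.79 and 9.46 in PrlR+/- islets, so the PrlR+/+ mice were nearly equal and PrlR+/- mice lay on both sides of them. Its difference was 0.15 ± 0.19 (SE; limma, adjusted p = 0.99). Over the 19 probe sets the differences ran from -0.03 to 0.26 with a median of 0.103, and 17 were above 0. PrlR+/- 4 was the highest mouse for 17 of the 19 probe sets. Without that mouse the median difference was -0.01 and 9 of 19 were above 0, a setting added after the data were seen. On the brightest probe set PrlR+/- 2 was the highest mouse, so the probe sets of this gene disagreed on the order of the mice. Their mean levels ran from 4.31 to 9.17, and 4 of them lay below the lower quartile of gene means.

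**Figure D4:**
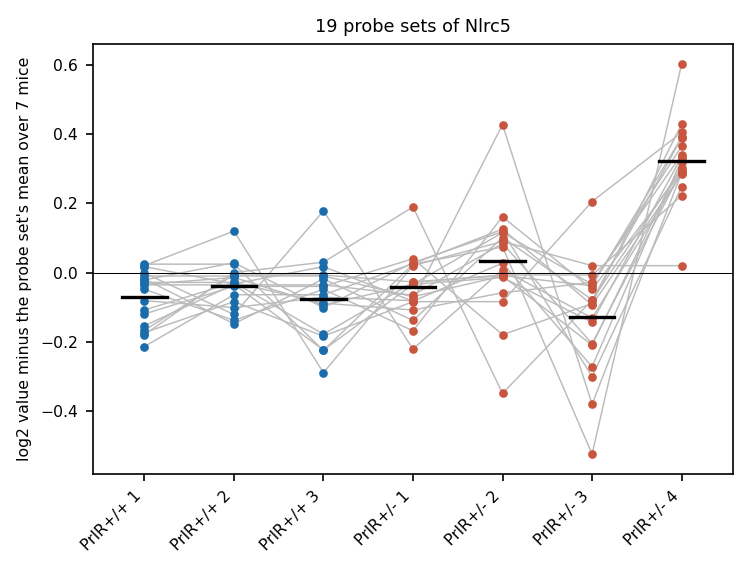
Log2 value minus the probe set's mean over the 7 mice for the 19 probe sets of Nlrc5. Points are probe sets, grey lines join the values of a probe set, black bars are means, and blue marks PrlR+/+ and red PrlR+/- mice. PrlR+/- 4 is the highest mouse for 17 of the 19.

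Bright and dim class I chain genes gave opposite directions, and in both the array of PrlR+/- 4 stood apart. The 4 chain genes above the median gene had lower means in PrlR+/- islets, and 14 of the 16 below it had higher means, with mean differences of -0.134 and 0.0923. Without PrlR+/- 4 these were -0.0608, with 1 of 4 higher, and 0.0575, with 10 of 16 higher. Over all genes that array had the highest lower quartile (5.82, against 5.62 to 5.73) and the lowest upper quartile (8.97, against 8.99 to 9.07). The median difference was 0.0142 over all genes and -0.00333 over those with a mean above the 40th percentile. The part of this narrow spread in the class I chain values was not tested. H2-Q2 measured 9.82, 9.80 and 9.85 in PrlR+/+ and 9.82, 9.91, 9.74 and 9.31 in PrlR+/- islets. H2-Q4 measured 8.34, 8.57 and 8.33 in PrlR+/+ and 8.25, 8.34, 8.39 and 8.11 in PrlR+/- islets. H2-Q5, a transcribed pseudogene per RefSeq, was at 8.64, 8.56 and 8.65 in PrlR+/+ and 8.63, 8.66, 8.60 and 8.27 in PrlR+/- islets.

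All 3 were lowest in PrlR+/- 4, with differences of -0.13 ± 0.14, -0.14 ± 0.09 and -0.08 ± 0.10 (SE). Without that mouse the mean difference of the 4 H2-Q genes, which include the dim H2-Q10, was -0.0167 in place of -0.076. The H2-Q genes are close copies of each other and of the classical chains, and a probe set of 1 may also read transcripts of another.

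H2-M3, which presents formylated peptides of bacteria and mitochondria, measured 8.43, 8.11 and 8.19 in PrlR+/+ and 8.11, 8.00, 8.11 and 7.99 in PrlR+/- islets. Its lowest PrlR+/+ mouse equalled the 2 highest PrlR+/- mice. The difference was -0.19 ± 0.09 (SE; limma, unadjusted p = 0.0655, adjusted p = 0.99), and the exact permutation test gave p = 0.0857. Without PrlR+/+ 1 it was -0.10.

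H2-T24 measured 6.31, 5.90 and 6.02 in PrlR+/+ and 6.32, 6.39, 6.27 and 6.27 in PrlR+/- islets, and PrlR+/+ 1 lay inside the PrlR+/- range. The difference was 0.24 ± 0.10 (SE; limma, unadjusted p = 0.0501, adjusted p = 0.99), and it was 0.35 without PrlR+/+ 1 and 0.15 without PrlR+/+ 2. The 6 H2-M10 genes, class I relatives known from the vomeronasal organ, all had higher means, between 0.07 for H2-M10.4 and 0.25 for H2-M10.6, and 4 of 6 were highest in PrlR+/- 4. Their PrlR+/+ means lay between 3.72 (H2-M10.1) and 6.24 (H2-M10.2), and 4 of the 6 lay below the lower quartile of gene means. Without PrlR+/- 4 their mean difference was 0.0778 in place of 0.143 and 4 of 6 were higher. The remaining chain genes, namely H2-Bl, H2-K2, H2-T10, H2-M1, H2-M2, H2-M5, H2-M9 and H2-M11, had differences between -0.11 and 0.18. H2-Ke6 was at -0.09 ± 0.08.

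**Figure D5:**
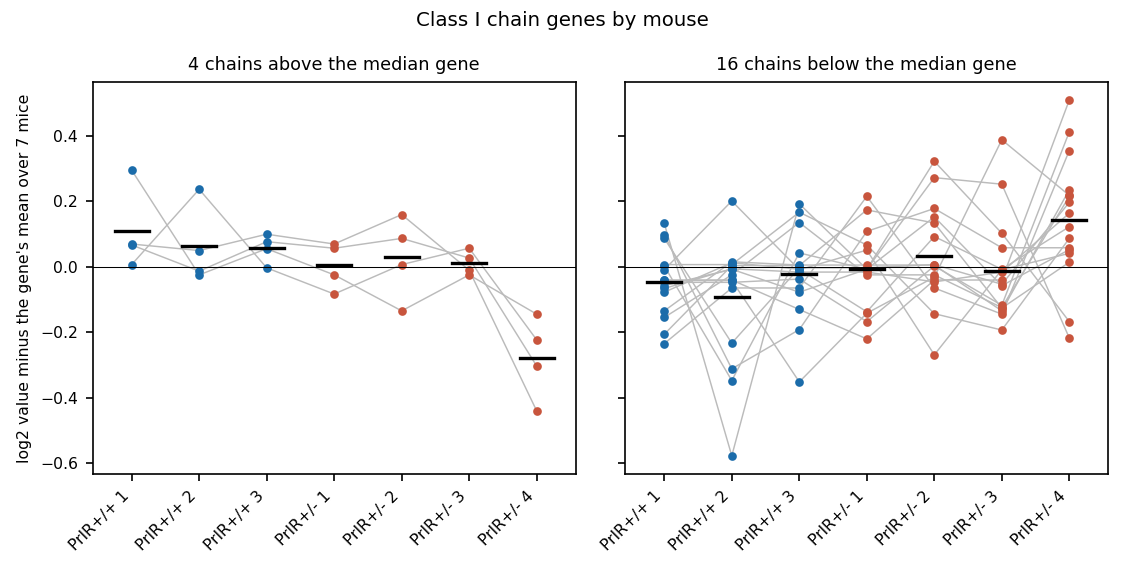
Log2 value minus the gene's mean over the 7 mice for the 4 class I chain genes above the median gene (left) and the 16 below it (right). Points are genes, black bars are means over genes, and blue marks PrlR+/+ and red PrlR+/- mice. PrlR+/- 4 has the lowest mean deviation on the left (-0.28) and the highest on the right (0.14).

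Class I and class II were set side by side in each mouse. The 32 class I genes had a mean difference of 0.069 and a median of 0.0796, with 23 higher and 9 lower, and the 10 class II genes had a mean of 0.118 and a median of 0.124. Class I minus class II, taken as the mean of each class per mouse, was -0.81, -0.29 and -0.71 in PrlR+/+ mice 1 to 3 and -0.68, -0.82, -0.59 and -0.54 in PrlR+/- mice 1 to 4. Levels of different probe sets cannot be set against each other, so only the change of this value between mice can be read. The PrlR+/- mice lay within the PrlR+/+ range for 3 of 4 mice, and PrlR+/- 2 lay just below it. The mean difference of class I less that of class II was -0.0491. Its sign turned without PrlR+/+ 2 (0.107), without PrlR+/- 2 (0.00575) and with array weights (0.0179), and without PrlR+/+ 1 it was -0.153. Between PrlR+/+ mice the class I mean ran from 7.138 to 7.148 and the class II mean from 7.443 to 7.959. Within class I the lists differed, and PrlR+/+ 2 was the lowest of these 3 mice for class I chains (5.952, against 5.997 and 6.006) and the highest for class I pathway genes (9.143, against 9.056 and 9.024).

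Factors that act on MHC promoters and the interferon pathway were measured beside the members. Of 7 promoter factor genes 4 had higher and 3 lower means. Nfyb, a subunit of the Y box factor NF-Y, was at 8.20, 8.47 and 8.34 in PrlR+/+ and 8.20, 7.97, 8.11 and 8.11 in PrlR+/- islets, a difference of -0.24 ± 0.09 (SE; limma, unadjusted p = 0.0258, adjusted p = 0.99). Its PrlR+/- 1 value equalled that of PrlR+/+ 1, so the groups met. Rfxank, which holds the X box complex together, differed by 0.08 ± 0.08, and Rfx5 by -0.08 ± 0.11.

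Of 12 measured genes of interferon receptors and signalling, 8 had higher means, with a median difference of 0.0617. Irf1, a factor that activates immunoproteasome and class I genes, measured 8.67, 9.02 and 8.66 in PrlR+/+ and 8.85, 8.67, 9.17 and 9.40 in PrlR+/- islets. Irf2, a related factor, measured 9.65, 9.72 and 9.87 in PrlR+/+ and 9.87, 9.77, 10.17 and 10.25 in PrlR+/- islets. Both were highest in PrlR+/- 3 and 4, as Psme2 and Psmb8 were, and their differences of 0.24 ± 0.19 and 0.27 ± 0.13 (SE) did not pass (limma, adjusted p = 0.99 for each). The difference of Irf1 was 0.11 without PrlR+/- 4 and 0.36 without PrlR+/+ 2. Ifngr2, a chain of the interferon gamma receptor, differed by -0.18 ± 0.10.

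Several interferon-induced genes outside the MHC were lowest in PrlR+/+ 2. Of 15 measured genes of 20 listed, PrlR+/+ 2 was the lowest mouse for 8, as it was for 13.4% of all genes. PrlR+/- 4 was the lowest for 4, as it was for 17.8% of all genes. The list mean was 7.139 in PrlR+/+ 2, 7.223 in PrlR+/- 4 and 7.377 to 7.497 in the others. Over the genotypes 8 had higher and 6 lower means, with a median of 0.03. The mean difference of the list was 0.0239, and -0.087 without PrlR+/+ 2. The part of these genes in the class II values was not tested. Bst2, which tethers budding viruses, was the 1 gene with an unadjusted p under 0.05 (0.19 ± 0.07, SE; limma, unadjusted p = 0.0342, adjusted p = 0.99), and Gbp3, a guanylate-binding protein gene, differed by 0.17 ± 0.09. Co-stimulatory and checkpoint ligands had a median of -0.0342 over 6 genes, with Cd274, the ligand of the checkpoint receptor PD-1, at -0.21 ± 0.18 and Cd86, a co-stimulatory ligand, at 0.14 ± 0.13. The MHC-like genes outside the members had a median of -0.101 over 5 measured of 6 listed, with Mr1, which presents vitamin metabolites, at -0.17 ± 0.16 and Azgp1 at -0.20 ± 0.38.

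Markers of the other cell types that islets could hold were read for the same mice. T and NK cell markers were higher in PrlR+/- islets by their means for 9 of 10 genes (median 0.0892). Of these, Cd3d, an invariant chain of the T cell receptor, did not overlap between the groups (0.18 ± 0.07, SE; limma, unadjusted p = 0.0402, adjusted p = 0.99). Groups did not overlap for 2.24% of all genes. Cd3g, another invariant chain, differed by 0.16 ± 0.08 and Cd3e, the brightest, by 0.06 ± 0.16. Cd3d (4.74 to 5.13) and Cd3g (4.16 to 4.52) lay below 5.71, the lower quartile of gene means, where array values may not reflect transcripts. The mean of the T and NK list was highest in PrlR+/- 4, at 5.507, and lay between 5.247 (PrlR+/+ 2) and 5.363 in the others. B cell markers were highest there too, at 6.018. PrlR+/- 4 was the highest mouse for 6 of 10 T and NK markers and 4 of 6 B cell markers, against 29.3% of all genes. In both lists 0 markers lay above the median gene. The lower quartile of genes on that array was 5.82, against 5.62 to 5.73 on the others. For B cells 5 of 6 means were higher, with Ighm, an immunoglobulin chain gene, at 0.17 ± 0.07 and the receptor chain gene Cd79b at 0.10 ± 0.12. The B cell list averaged 0.0828 over its differences with PrlR+/- 4 and 0.00278 once it was left out, with 2 of 6 higher. T and NK cell markers averaged 0.0973 and 0.0507 in the same way, with 6 of 10 higher. The part of these markers in the values of PrlR+/- 4 was not tested.

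Vascular, stromal and exocrine markers had mostly higher means in PrlR+/- islets, and none passed adjustment. Higher means were found for 5 of 8 endothelial, 7 of 8 stellate cell and fibroblast, 6 of 7 acinar and 3 of 5 duct markers. Leaving out PrlR+/- 2 brought the average difference of endothelial markers from 0.058 to -0.00833, of stellate cell and fibroblast markers from 0.126 to 0.0433, of acinar markers from 0.111 to 0.0252 and of duct markers from 0.134 to 0.0667. The endothelial genes had a median of 0.0712, with Emcn and Cdh5, surface proteins of vessels, at 0.26 ± 0.09 and 0.23 ± 0.10, and Emcn did not overlap between the groups. For stellate cells and fibroblasts the median was 0.0908 over 8 genes, with Postn, a matrix protein gene, at 0.29 ± 0.17 and Dcn, a proteoglycan gene, at 0.29 ± 0.27. The acinar list gave 0.103 over 7 genes, with the elastase genes Cela2a and Cela1 at 0.14 ± 0.12 and 0.32 ± 0.28 and the brightest, Ctrb1, at -0.02 ± 0.06. For duct cells it was 0.0533 over 5 genes, with the duct factor gene Sox9 at 0.21 ± 0.12, the mucin gene Muc1 at 0.45 ± 0.34 and the brightest, Epcam, at -0.02 ± 0.15. Sox9, like Emcn, did not overlap between the groups, which held for 2.24% of all genes. Beta cell genes had a median of -0.0408 over 9, with the transcription factor gene Nkx6-1 at 0.10 ± 0.06, the glucose transporter gene Slc2a2 at -0.34 ± 0.21 and the brightest, Iapp, at 0.03 ± 0.06. The smallest unadjusted p among these lists was that of Emcn, 0.0198 by limma, with adjusted p = 0.99.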

How the data were processed

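Each of the 7 mice, 3 PrlR+/+ and 4 PrlR+/-, gave 1 Affymetrix array, and groups follow the source labels. The authors deposited log2 values for 35556 probe sets, rounded to 2 decimals and lying between 1.73 and 13.97; that they are log2 was judged from this range. The submitters' processing notes name Affymetrix Expression Console, version 1.2.0.20. How background was corrected and arrays were normalized and summarized is not stated in the labels or the table, nor are scan dates, so batch was not tested. Arrays carry no read depth and no detection calls were used, so a dim value may hold no transcript signal.

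Probe sets were named from the platform annotation, in which 21789 have 1 symbol, 1621 several and 12146 none listed. The probe set of highest mean stood for a gene, which left 19938 genes, without a filter. All 44 members were found in the RefSeq table (GRCm38.p6), with 0 symbols changed.

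Genotypes were compared with limma 3.58.1 (linear model, moderated variance) under R 4.3.3, and calls were made at a Benjamini-Hochberg adjusted p under 0.05. Tables were made with pandas 2.3.3. The fit was tested on simulated data with 200 changed genes per run. In those runs the fit called 53.1% of genes changed 1.5-fold and 87.5% of those changed 2-fold, so many smaller changes would be missed. On the measured arrays the weights ran from 0.293 (PrlR+/- 4) to 2.74 (PrlR+/+ 3). The share of changes of a given size that the fit calls on these arrays was not tested. Members, lists and tests were chosen with earlier results of these data known, and lists carry no test of their own.

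The genes named are the 15 named singly in the rule, the main class II chains, H2 genes with an unadjusted p under 0.05 or no overlap, members with a mouse far from the others, and of each other list the 2 genes of smallest unadjusted p and, for markers, the brightest. Named outside it, after their values were seen, were the other H2 genes, Psmb5, Psmb6, Psmb7, Psma1, Ctss, Irf1, Rfx5, Fcer1g, Cx3cr1, Flt3, Ins2 and Cpa1 and those of the closing observations. The splits into bright and dim genes were also made then.

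Alternatives were 2 other variance models, array weights, quantile normalization, median centring, 2 filters on dim genes (mean above the 40th percentile, or above the median probe set in 3 or more samples, each passed by 23 members), the mean of a gene's probe sets, the replicate number as a block, and each mouse left out.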

Additional observations from a re-analysis of the deposited data

Results flagged for a closer look

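In 5 of 44 members 1 of the 4 PrlR+/- mice lay far from the other 3, measured as the gap to its nearest neighbour over the range of the group. The same held for 15.0% of all 19938 genes, against 11.4% of the members, while chance flags about 1 in 20 groups of values without ties. Values here are rounded to 2 decimals and can tie, and the rule does not weigh the size of the gap. H2-Q5 was at 8.27 in PrlR+/- 4 against 8.60 to 8.66 in the other 3. H2-T10, a class I pseudogene, was at 6.07 in PrlR+/- 4 against 5.86 to 5.89. H2-Ob was at 6.16 in PrlR+/- 2 against 5.95 to 5.96. H2-Ea was at 4.80 in PrlR+/- 1 against 4.64 to 4.65, and Cd1d1 at 5.72 in PrlR+/- 3 against 5.68 in each other PrlR+/- mouse. The group of 3 PrlR+/+ mice was not examined in this way.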

How the results depend on the processing

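The count of 0 calls, over all genes and over the members, held under each of 16 alternative fits and at an adjusted p under 0.1. The smallest adjusted p of a named member in any of the 16 was 0.818. With either filter on dim genes, which kept 5 class I chain genes and 5 class II genes, the mean difference of class I chains was -0.0722 in place of 0.047, with 1 of 5 higher, and 5 of 5 class II genes were higher. Of all members, 15 of 23 were higher with either filter. Array weights gave 9 of 20 class I chains higher in place of 14, and 3 of the 5 bright class II genes. Leaving out single mice moved the number of class II genes higher between 5 and 10, and of the bright 5 between 1 and 5. The class II mean difference ran from -0.0355 (without PrlR+/+ 2) to 0.222, and with array weights it was 0.0311.

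Of 29 members followed through the alternatives, 18 kept their direction wherever they were run, 13 of them in all 16 fits and 5 (Cd1d1, Ciita, H2-Ob, H2-T10 and H2-T24) in those without a filter on dim genes, which they did not pass. H2-Q2 was at 0 with the block and without PrlR+/- 4, and Tapbp without PrlR+/- 1. Array weights turned H2-DMa (-0.0196), H2-Eb1 (-0.00182), H2-Oa (-0.0443) and Tap1 (-0.00671). Quantile normalization turned H2-Eb2 (-0.0333), and median centring turned H2-Eb2 (-0.0075) and Tapbp (-0.00833). The replicate numbers were not taken to pair mice, since the deviations of same-numbered mice from their group means correlated over genes with r = 0.0896, -0.386 and -0.0287. With the replicate number as a block, in which PrlR+/- 4 has no partner and drops out, H2-Eb2 was at -0.04, H2-Oa at -0.0167, Tap1 at -0.01 and H2-Q5 at 0.0133; class I pathway genes averaged 0.0564 and class II 0.13. Leaving out 1 mouse turned H2-Aa (-0.235 to 0.345), H2-Ab1 (-0.14 to 0.5), H2-DMa (-0.105 to 0.295), H2-Eb1 (-0.128 to 0.357), H2-Eb2 (-0.04 to 0.05), H2-Ea (-0.00333 to 0.05), H2-Oa (-0.0167 to 0.117), H2-Q5 (-0.117 to 0.0133), Tap1 (-0.01 to 0.06) and Tapbp (-0.0233 to 0.02), given as ranges over the mice left out. The causes were not tested. A list of class I chains limited to H2-K1 and H2-D1 was not run, since these genes had no probe set of their own. The bright class II, H2-Q and all-member lists, the counts of members higher, and H2-T24, H2-M3, H2-Q2 and H2-Q4 were added after seeing the data.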

Other observations

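Of the MHC-like genes outside the members, Azgp1, a secreted class I relative, was at 7.09 in PrlR+/+ 2 and otherwise from 5.51 to 6.06, and Procr, the endothelial protein C receptor gene, was at 6.92 there against 5.98 to 6.31. Both were thus high in the mouse in which bright class II genes were low. Rsad2, an interferon-induced antiviral gene, was at 7.29 in PrlR+/- 4 and between 8.14 and 8.81 in the others, while Usp18, a regulator of interferon signalling, was at 9.52 in that mouse and between 9.95 and 10.29 elsewhere. These genes were picked after their values were seen.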
